A study of Homo sapiens with 8 samples.

Results

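The collagen, laminin and integrin genes were taken from the RefSeq table by symbol: COL with a number, A and a second number, the laminin alpha, beta and gamma chains, and ITGA or ITGB with the number or letter of an integrin chain. The rule gave 82 of 20037 protein-coding genes, of which 44 encode collagen chains, 12 laminin chains and 26 integrin chains. H3K27ac, acetylation of histone H3 at lysine 27, is a mark of active promoters and enhancers. It was mapped by ChIP-seq in MIA PaCa-2, a human pancreatic carcinoma cell line cultured in serum-containing medium. MP2_HDAC1_OE is a stable derivative in which a CRISPR activation system raises HDAC1, a histone deacetylase, from its own promoter. MP2_NTC carries the same lentiMPHv2 and lentiSAMv2 activator constructs with a guide that targets no gene. Each line had 2 H3K27ac samples and 2 controls without antibody, and the authors deposited 1 peak list per line made over both samples. Each condition was therefore 1 list from 1 engineered line, so no spread between samples could be computed, no test between the lines was possible, and a line effect and an HDAC1 effect cannot be told apart.

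Collagens are triple-helical proteins of the extracellular matrix. Fibrillar collagens form the fibers of connective tissue, and network collagens and laminins build the basement membrane on which epithelial cells rest. Integrins are pairs of an alpha and a beta chain in the cell membrane. They bind collagens, laminins and other matrix proteins on the outside, and most bind the actin cytoskeleton through adaptor proteins on the inside. Pancreatic ductal tumors are known for a dense collagen matrix, most of it laid down by fibroblasts, while the carcinoma cells use integrins to attach to it.

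The MP2_HDAC1_OE list held 25045 peaks with signal values from 11.0 to 184.9, and the MP2_NTC list held 22569 peaks from 11.7 to 220.4. Peaks of both lists that overlapped by at least 1 bp were merged into 18678 regions. A region was called shared when both lists had a peak in it and unique when all its peaks came from 1 list. Because the lists differ in scale, each peak was given a rank, the percentage of peaks of its own list with a lower signal, and a region took the rank of its strongest peak in each list. A gene was searched with 20 kb on either side, and gene ends were counted over 2 kb beyond and 1 kb within each limit of the RefSeq gene. HDAC1, the targeted gene, had 5 regions in its window. At its own ends it had a shared region with rank 93.9 in MP2_HDAC1_OE and 40.4 in MP2_NTC and 2 regions unique to MP2_NTC with ranks 45.2 and 47.4. Elsewhere it had a region unique to MP2_HDAC1_OE with rank 28.6 and a shared one with rank 53.1 in MP2_HDAC1_OE and 76.8 in MP2_NTC, so the direction was mixed across the gene. At gene ends, H3K27ac was present for 3 of 6 epithelial carcinoma markers (KRT8, KRT18 and KRT19, but not KRT7, EPCAM or CDH1), for both mesenchymal markers VIM and ZEB1, and for 2 of 10 markers of blood, endothelial and fibroblast cells, CD68 and CDH5. KRT8 and KRT18 had the same end ranks, 61.1 in MP2_HDAC1_OE and 76.2 in MP2_NTC, so 1 region may count for both. In their windows EPCAM and CDH1 had 1 shared region each, and KRT7 had none. Of the fibroblast markers, DCN, LUM and PDGFRA had no region in their windows, and PDGFRB had 2, 1 unique to MP2_HDAC1_OE and 1 shared, none at its ends.

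H3K27ac was found at the ends of these genes less often than at those of protein-coding genes in general. A region of either list lay in the window of 42 of 82 genes (51.2%, 95% Wilson interval 40.6 to 61.7, counting error only), against 63.2% of all protein-coding genes. At an end of the gene itself a region was found for 15 of 82 (18.3%, interval 11.4 to 28), against 48.5% of all. These genes are long, with a median of 90.5 kb against 24.1 kb for all protein-coding genes. Among genes of 50 kb or longer, 12.1% of 58 collagen, laminin and integrin genes (interval 5.97 to 22.9) had a region at their own end, against 47.7% of 6269. The low share was thus also seen among long genes alone. Of the 58 genes with a RefSeq promoter entry, 300 bases around an annotated start, 6 (10.3%, interval 4.83 to 20.8) had a peak over at least 1 entry, against 45.1% of 15843 protein-coding genes.

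Regions unique to 1 list were found for these genes about as often as for other genes. A region unique to MP2_HDAC1_OE lay in the window of 23 genes (28%, interval 19.5 to 38.6), against 26.4% of all protein-coding genes. For MP2_NTC the count was 19 genes (23.2%, interval 15.4 to 33.4), against 23.4%. Both shares were near their backgrounds. Among genes of 50 kb or longer they were lower, 15.5% against 24% for MP2_HDAC1_OE (interval 8.38 to 26.9) and 17.2% against 22.2% for MP2_NTC (interval 9.64 to 28.9), and both intervals hold the share of all long genes. Unique MP2_HDAC1_OE regions and no other region were found for 6 genes (7.32% against 5.45% of all), unique MP2_NTC regions and no other for 4 genes (4.88% against 4.44%), and unique regions of both lists without a shared one for 3. A further 13 genes had shared regions alone, 16 had shared and unique regions, and 40 had none. At the gene's own end, 7 genes had a region unique to MP2_HDAC1_OE (8.54% against 12.1% of all) and 4 a region unique to MP2_NTC (4.88% against 10.4%).

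**Figure D1:**
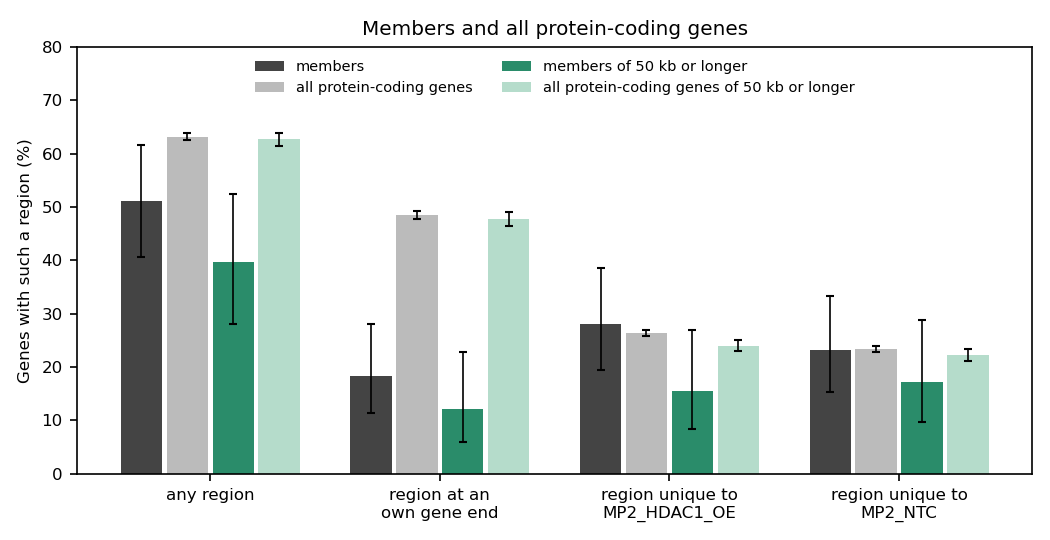
Percentage of genes (vertical axis) with any H3K27ac region, a region at an end of the gene, a region unique to MP2_HDAC1_OE or a region unique to MP2_NTC, for collagen, laminin and integrin genes (members), all protein-coding genes, and those of 50 kb or longer. Bars are shares and error bars are 95% Wilson intervals for counting error; the bars for gene ends differ most, 18.3% against 48.5%.

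Marked windows were most frequent for integrin and least frequent for laminin genes, but the family intervals overlap. A region lay in the window of 18 of 26 integrin genes (69.2%, interval 50 to 83.5), against 63.2% of all protein-coding genes. For collagen genes the count was 20 of 44 (45.5%, interval 31.7 to 59.9), and for laminin genes 4 of 12 (33.3%, interval 13.8 to 60.9). The integrin interval holds the share of all genes, and those of collagens and laminins lie below it. Own ends were marked for 7 integrin (26.9%, interval 13.7 to 46.1), 5 collagen (11.4%, interval 4.95 to 24) and 3 laminin genes (25%, interval 8.89 to 53.2), against 48.5% of all. All 6 integrin beta genes that had a region had one unique to MP2_HDAC1_OE (ITGB1, ITGB2, ITGB4, ITGB5, ITGB6 and ITGB7), and 2 of them also had one unique to MP2_NTC. Over all 8 beta genes this was 75% (interval 40.9 to 92.9) and 25% (interval 7.15 to 59.1), against 26.4% and 23.4% of all protein-coding genes. For ITGB7 the MP2_HDAC1_OE regions lay at starts of other genes, and for ITGB6 the region lay 1 bp from one of MP2_NTC. Of the 18 integrin alpha genes, 4 had a region unique to MP2_HDAC1_OE (22.2%, interval 9 to 45.2) and 6 one unique to MP2_NTC (33.3%, interval 16.3 to 56.3). Among fibrillar collagens, 5 of 11 had a region unique to MP2_HDAC1_OE (45.5%, interval 21.3 to 72) and 1, COL5A2, a region unique to MP2_NTC (9.09%, interval 1.62 to 37.7). The intervals of the alpha genes and the fibrillar collagens hold the shares of all protein-coding genes. These splits were noticed among several families and were not tested.

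Several of the genes best known for matrix and attachment had no H3K27ac region in either list. They include COL1A1, the main chain of collagen I, COL4A1 and COL4A2, the common basement membrane collagens, LAMA3 and LAMB3, chains of epithelial laminin at hemidesmosomes, LAMB1, and ITGA5, the alpha chain of the fibronectin receptor. Further genes without a region were COL4A4, COL4A5, COL4A6, COL5A1, COL5A3, COL6A5, COL6A6, COL9A1, COL9A2, COL11A1, COL12A1, COL13A1, COL14A1, COL15A1, COL19A1, COL21A1, COL22A1, COL24A1, COL25A1, COL27A1 and COL28A1 among the collagens, LAMA1, LAMA4, LAMB4 and LAMC3 among the laminins, and ITGA4, ITGA8, ITGA9, ITGAM, ITGAX, ITGB3 and ITGB8 among the integrins. Absence from both lists means that no reproducible peak was called there, and the depth of the samples is unknown from these lists.

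Promoter sequences are shown for 4 integrin genes with a promoter entry overlapped by a peak. At ITGB5 and ITGA6 the starts shown lay under a peak of 1 list alone, at ITGAV the lists covered different lengths of the entry, and at ITGB1 the peaks of both lists reached only the upstream edge and none covered the start. They are RefSeq promoter entries of build GRCh38.p14, written 5′ to 3′ on the gene's strand, from 250 bases before to 50 bases after the start. ITGA6 and ITGB5 were chosen by the rule for genes with unique regions alone, and ITGB1 and ITGAV after their values were seen. Capitals mark matches on either strand to 5 motifs. These are TGANTCA for the AP-1 factors of growth and stress responses, GGGCGG as the GC box of many promoters without a TATA box, and CACCTG as the E-box bound by repressors of epithelial genes such as ZEB1. The other motifs are TATAAA as the core of the TATA box, and GGAATG for the TEAD factors that act with YAP. No capitals overlap between motifs in the sequences shown.
ITGB5 start in the gene, chr3:124887316-124887615, minus strand: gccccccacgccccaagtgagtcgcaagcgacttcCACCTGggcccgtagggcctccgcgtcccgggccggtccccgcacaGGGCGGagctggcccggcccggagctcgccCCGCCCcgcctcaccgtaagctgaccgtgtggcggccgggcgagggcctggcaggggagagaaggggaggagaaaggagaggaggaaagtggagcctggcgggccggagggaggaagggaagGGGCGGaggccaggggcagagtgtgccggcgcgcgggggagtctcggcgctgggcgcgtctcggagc
ITGB5 further start, chr3:124887635-124887934, minus strand: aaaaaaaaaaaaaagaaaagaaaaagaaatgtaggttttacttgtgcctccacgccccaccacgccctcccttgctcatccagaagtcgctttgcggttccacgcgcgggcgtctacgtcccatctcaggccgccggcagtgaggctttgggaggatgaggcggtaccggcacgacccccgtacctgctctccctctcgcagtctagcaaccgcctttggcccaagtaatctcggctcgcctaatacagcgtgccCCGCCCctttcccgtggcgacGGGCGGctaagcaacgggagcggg
ITGA6, chr2:172427336-172427635, plus strand: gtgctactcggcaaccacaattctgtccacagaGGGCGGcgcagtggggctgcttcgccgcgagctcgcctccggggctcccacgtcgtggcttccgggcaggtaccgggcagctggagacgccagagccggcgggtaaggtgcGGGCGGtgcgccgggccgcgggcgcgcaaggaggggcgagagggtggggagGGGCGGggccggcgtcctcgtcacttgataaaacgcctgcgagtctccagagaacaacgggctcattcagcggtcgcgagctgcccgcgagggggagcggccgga
ITGB1, chr10:32958181-32958480, minus strand: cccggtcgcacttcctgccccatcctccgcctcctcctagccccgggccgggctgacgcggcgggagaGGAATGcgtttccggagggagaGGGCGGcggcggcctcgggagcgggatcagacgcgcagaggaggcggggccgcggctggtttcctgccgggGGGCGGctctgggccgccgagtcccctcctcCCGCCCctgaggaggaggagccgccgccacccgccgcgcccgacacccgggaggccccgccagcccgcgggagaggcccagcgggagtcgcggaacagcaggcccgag
ITGAV, chr2:186589806-186590105, plus strand: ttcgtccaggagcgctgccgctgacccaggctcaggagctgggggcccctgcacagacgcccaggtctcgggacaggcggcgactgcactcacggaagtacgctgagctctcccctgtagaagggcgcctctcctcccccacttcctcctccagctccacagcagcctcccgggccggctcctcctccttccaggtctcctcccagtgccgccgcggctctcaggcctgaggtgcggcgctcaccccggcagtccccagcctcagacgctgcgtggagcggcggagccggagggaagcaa
Both ITGB5 entries were covered over all 300 bases by a peak of the MP2_HDAC1_OE list and over 0 bases by MP2_NTC. The ITGA6 entry shown was covered over 212 bases by MP2_NTC and over 0 by MP2_HDAC1_OE, so these starts were each marked in 1 list. All 4 genes also had an entry, not shown, that no peak of either list overlapped. That of ITGA6, chr2:172427086-172427385 at the gene's outer start, held 2 E-boxes, 1 GC box and 1 TATA match. For ITGAV the peaks covered 300 bases in MP2_NTC and 153 in MP2_HDAC1_OE. At ITGB1 only 37 and 30 bases were covered, and the region extended upstream of the entry. The 5 entries shown hold from 59.7% to 78.3% G and C, against a median of 62.3% over 22199 entries of protein-coding genes. GC boxes occurred in 3 copies in ITGA6, in ITGB1 and in the first ITGB5 entry, in 2 in the second and in none in ITGAV, while 56.3% of all entries and 55.8% of the 77 entries of these gene families held at least 1. An E-box stood in the first ITGB5 entry (19.9% of all entries held one, and 16.9% of the 77) and a TEAD match in ITGB1 (12.2% and 9.09%). None of the 5 held an AP-1 match (6.15% and 5.19%) or a TATA box (9.47% and 13%). A match is a description of the sequence and not a binding site.

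In collagen genes most regions lay away from the gene's own ends. COL1A2, the second chain of collagen I, had 2 regions, both unique to MP2_HDAC1_OE. One covered its lower-coordinate end at chr7:94394446-94395861 with signal 42.0 and rank 41, and the other lay 19243 bp outside that end with signal 43.7 and rank 44.4. The nearest MP2_NTC peaks were 113961 and 134171 bp away, and the ranks were below the middle of the list. COL3A1, which forms collagen III fibers, had 2 regions inside the gene, unique to MP2_HDAC1_OE with ranks 21.9 and 65.5, and no MP2_NTC peak within 113717 bp. COL18A1, a basement membrane collagen whose end fragment is endostatin, also had 2 regions inside the gene unique to MP2_HDAC1_OE, with ranks 62.4 and 49.2. COL2A1, the collagen of cartilage, had 1 region unique to MP2_HDAC1_OE with rank 40.9, which lay 8779 bp outside the gene at the start of TMEM106C.

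**Figure D2:**
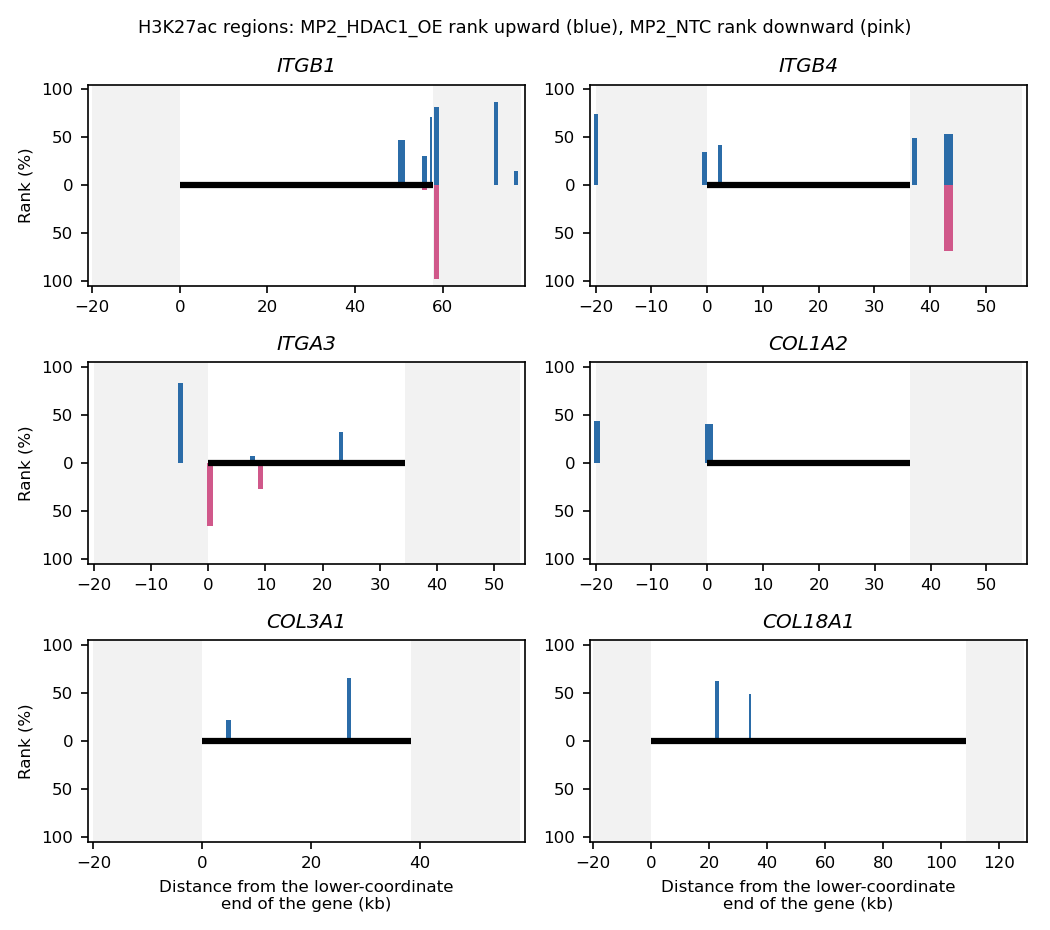
Rank (vertical axis, percent) of H3K27ac regions against distance from the lower-coordinate end of the gene (horizontal axis, kb) for ITGB1, ITGB4, ITGA3, COL1A2, COL3A1 and COL18A1. Blue bars upward are MP2_HDAC1_OE, pink bars downward MP2_NTC, the black line is the gene and grey the 20 kb on either side; COL1A2, COL3A1 and COL18A1 have bars upward alone, 2 each.

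COL5A2, a chain that regulates the width of collagen fibers, held more regions than any other of the 82 genes, 15 of the 122. Of these, 6 were unique to MP2_HDAC1_OE, 4 to MP2_NTC and 5 shared, and 14 lay inside the 409.2 kb gene. Most of the regions inside the gene lay between 172.5 and 191.5 kb and between 222.0 and 254.0 kb from its lower end. In the shared region at 178.3 kb the rank was 72.3 in MP2_HDAC1_OE and 21.4 in MP2_NTC, a difference of 50.9 points. At 250.6 kb the ranks were 73.5 and 24.4, a difference of 49.1 points. These were the widest shifts toward MP2_HDAC1_OE among the shared regions of these genes, but the summits of the compared peaks lay 1017 and 507 bp apart, so peaks at different sites within a region were compared. The strongest unique regions of the gene were also in MP2_HDAC1_OE, with rank 85.6 at 181.8 kb and 82.5 at 245.7 kb, while its 4 regions unique to MP2_NTC had ranks from 24.9 to 47.9. At the upper end of the gene, which it shares with the start of WDR75, the order was opposite, with 54.7 in MP2_HDAC1_OE and 73 in MP2_NTC. The summits compared there likewise lay apart, by 643 bp.

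**Figure D3:**
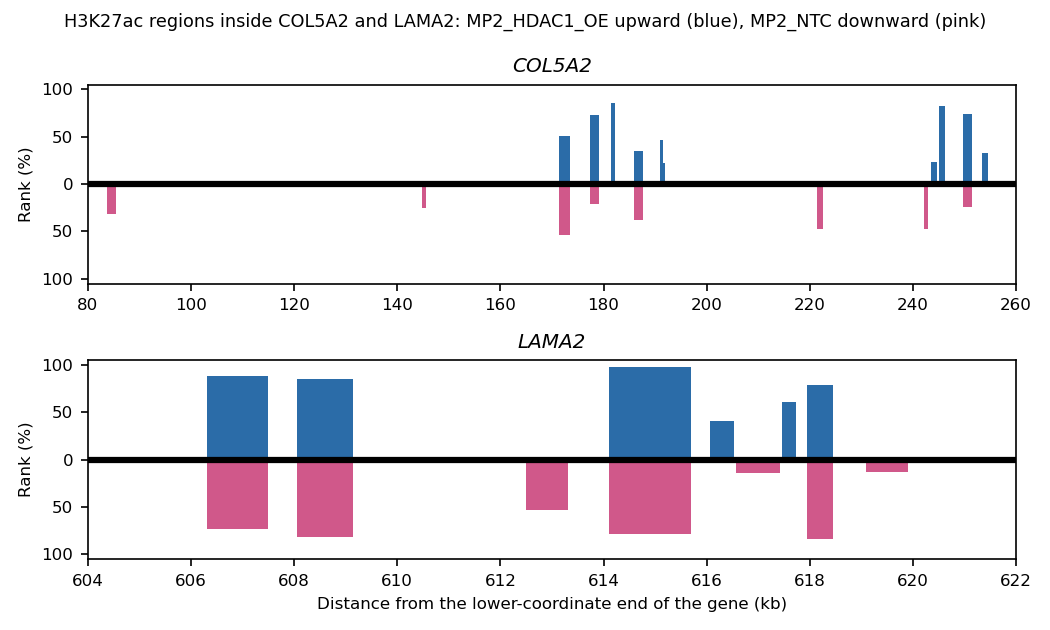
Rank (vertical axis, percent) of H3K27ac regions against distance from the lower-coordinate end of the gene (horizontal axis, kb) inside COL5A2 and LAMA2, with MP2_HDAC1_OE upward in blue and MP2_NTC downward in pink. In COL5A2 the tallest bars are blue (85.6 and 82.5), and in LAMA2 4 regions carry tall bars of both lists.

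Of the remaining collagen genes, few were marked at their own ends. COL26A1, a minor member of the collagen family, had the highest rank of MP2_HDAC1_OE at an own end, 92.6 (signal 88.0), against 71.4 in MP2_NTC (signal 64.2), in a shared region at its start, chr7:101362977-101364405. COL6A1, a chain of the beaded filaments around cells, had 2 unique regions at its lower end only 205 bp apart, one of MP2_NTC with rank 19.5 and one of MP2_HDAC1_OE with rank 46.5, so the lists marked neighboring sequence there. COL11A2, a minor fibrillar chain, had a region unique to MP2_HDAC1_OE with rank 63.4 at its stop end and shared regions with ranks from 86.4 to 95.2 at the starts of RXRB, SLC39A7 and RING1 nearby. COL17A1, a transmembrane collagen of hemidesmosomes, had 4 regions inside the gene. In 1 of its shared regions the rank was 45 in MP2_HDAC1_OE and 6.26 in MP2_NTC, and in the other 44.7 and 73.3. The signs were opposite within 1 gene.

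Collagen windows often reached the end of another gene, and whether such a mark belongs to one gene or the other cannot be told apart. COL7A1, the anchoring fibril collagen, had no shared region, 1 region unique to MP2_HDAC1_OE with rank 86.2 at the start of UQCRC1, and 1 unique to MP2_NTC with rank 41.3. COL8A2, a collagen of the corneal membrane, had 1 region, unique to MP2_NTC with rank 75, at the start of ADPRS. COL20A1, a fibril-associated collagen, had 2 regions unique to MP2_NTC with ranks 46.4 and 28.1, both more than 16 kb outside the gene. COL9A3, a cartilage collagen chain, had 2 regions unique to each list, all 4 outside the gene. Their ranks were 3.53 and 26.8 in MP2_HDAC1_OE and 54.6 and 14.1 in MP2_NTC. A shared region in its window had ranks 28.5 in MP2_HDAC1_OE and 50.7 in MP2_NTC, from peaks whose summits lay 1073 bp apart. COL23A1, a transmembrane collagen, had the widest shift toward MP2_NTC, rank 2.85 in MP2_HDAC1_OE and 51.1 in MP2_NTC, at the start of PHYKPL, 5211 bp outside it. COL4A3, COL6A2, COL6A3, COL8A1, COL10A1 and COL16A1 had shared regions alone, none at their own ends, with ranks from 32.7 to 96.9 in MP2_HDAC1_OE and from 26.8 to 98.4 in MP2_NTC.

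Laminins were marked in both lists where they were marked at all. LAMC1, the gamma chain of most laminins, had a shared region at its start, chr1:183022140-183023125, with signal 61.2 and rank 73.2 in MP2_HDAC1_OE and signal 92.6 and rank 91.1 in MP2_NTC, and a weak MP2_NTC region of rank 9.15 followed inside the gene. LAMA5, the alpha chain of the main laminins of adult epithelial basement membranes, had a shared region at its start with ranks 56 and 58.1, nearly equal. In its window, at the start of ADRM1 and 6371 bp outside LAMA5, the rank was 21.9 in MP2_HDAC1_OE and 59.2 in MP2_NTC. LAMB2, a beta chain found in kidney and muscle basement membranes, had ranks 71.3 and 59.7 in the shared region at its start, 48.8 and 86.3 in the one at its stop end, which is also the start of USP19, and 0.922 in a region unique to MP2_HDAC1_OE. The LAMB2 ends thus ranked in opposite order between the lists.

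LAMA2, the alpha chain of muscle and nerve laminins, had 9 regions, all inside the gene between 606.9 and 619.5 kb from its start and none at an end. Among them, 4 were shared, 2 unique to MP2_HDAC1_OE and 3 unique to MP2_NTC. The strongest was shared, with rank 97.8 in MP2_HDAC1_OE and 78.8 in MP2_NTC, and the other 3 shared regions had ranks from 78.9 to 87.9 and from 73.4 to 84.2. The 2 unique MP2_HDAC1_OE regions stood 41 and 32 bp from an MP2_NTC peak, and the 3 of MP2_NTC 32 to 812 bp from an MP2_HDAC1_OE peak, so both lists marked the same cluster.

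Integrin beta genes held 22 regions, of which 14 were unique to MP2_HDAC1_OE, 2 unique to MP2_NTC and 6 shared, against 28.6%, 20.7% and 50.7% of all regions. ITGB1 and ITGB4 supplied 8 of the 14. The 28 regions of integrin alpha genes held 6, 7 and 15. This contrast was noticed after the values were seen and was not tested. ITGB1, the beta chain of the largest set of integrins, had 6 regions, 4 of them unique to MP2_HDAC1_OE and none unique to MP2_NTC. A shared region just upstream of its start, chr10:32958444-32959600, ranked lower in MP2_HDAC1_OE (signal 70.2, rank 81.9) than in MP2_NTC (signal 126.1, rank 98.2). The latter was the highest rank of MP2_NTC at an own end among these genes. The unique regions lay on both sides of this shared region: inside the gene at chr10:32950094-32951814, made of 4 peaks, with rank 46.8, just inside the start at chr10:32957415-32957899 with rank 71.4, and outside the gene at 13903 and 18498 bp with ranks 86.4 and 15.3. The first of the outer regions, chr10:32972134-32972953, was the highest-ranked unique MP2_HDAC1_OE region in these windows. Inside the gene a further shared region ranked 30.6 in MP2_HDAC1_OE and 4.83 in MP2_NTC. The shared region upstream of the start thus ranked higher in MP2_NTC, but the summits of its compared peaks lay 513 bp apart. The other regions, including the one just inside the start, ranked higher in MP2_HDAC1_OE or were unique to it. The one just inside the start lay 544 bp from the nearest MP2_NTC peak, and the remaining unique ones 4083 to 8979 bp.

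ITGB4, the beta chain that pairs with ITGA6 as a laminin receptor of hemidesmosomes, likewise had 4 regions unique to MP2_HDAC1_OE and none unique to MP2_NTC. They lay at its lower end (rank 35), at its upper end (rank 49.7), inside the gene (rank 41.8) and 19486 bp outside it (rank 74.6). The last was 962 bp from an MP2_NTC peak, while for the other 3 the nearest such peak was 5130 to 23139 bp away. The shared region in its window, at the start of GALK1, ranked 53.6 in MP2_HDAC1_OE and 68.6 in MP2_NTC. ITGB5, a beta chain of vitronectin receptors, had 1 region, unique to MP2_HDAC1_OE, at chr3:124887152-124887971 with signal 61.4 and rank 73.3, over the 2 starts whose sequences are given above. It was counted as inside the gene because the gene's outer end lies at a further start, and the nearest MP2_NTC peak was 156339 bp away.

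The other beta genes were less clear. ITGB6, the epithelial partner of ITGAV, had a region of each list outside the gene, with ranks 27.1 and 33.1, only 1 bp apart. ITGB2, a leukocyte beta chain, had 2 regions unique to MP2_HDAC1_OE (ranks 54.5 and 51.6) and 1 unique to MP2_NTC (rank 3.85). The one with rank 54.5 lay 12201 bp outside the gene at the start of PTTG1IP, 581 bp from an MP2_NTC peak. A shared region at the start of SLX9 ranked 84.2 and 46, with the summits of the compared peaks 437 bp apart. ITGB7, another leukocyte beta chain, had 2 regions unique to MP2_HDAC1_OE (ranks 53.1 and 46), both at the starts of CSAD and ZNF740.

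Among integrin alpha genes, the 3 laminin receptor chains each had an end whose region was unique to MP2_NTC or ranked higher there. A higher rank in MP2_NTC was not particular to them. At the own ends of all these genes, 3 of 10 shared regions ranked higher in MP2_HDAC1_OE. A further 8 own-end regions were unique to MP2_HDAC1_OE and 4 to MP2_NTC. ITGA6, a laminin receptor chain of epithelial cells, had a single region, unique to MP2_NTC, at its start at chr2:172427424-172428243 with signal 37.2 and rank 27.2, and the nearest MP2_HDAC1_OE peak was 127657 bp away. ITGA3, its relative in epithelial cells, had 3 regions unique to MP2_HDAC1_OE, 2 unique to MP2_NTC and no shared one. The region over its lower end, chr17:50055917-50056936, was unique to MP2_NTC with signal 59.7 and rank 65.8. A region 4366 bp outside that end, too far to count as at it, was unique to MP2_HDAC1_OE with signal 71.6 and rank 83.1. The lower end itself was thus marked in MP2_NTC alone. Inside ITGA3 an MP2_HDAC1_OE region of rank 7.52 and an MP2_NTC region of rank 27.1 were 609 bp apart, and an MP2_HDAC1_OE region of rank 32.1 stood alone. ITGA7, the muscle laminin receptor chain, shared its upper end with the start of BLOC1S1, and the region there ranked 60.6 in MP2_HDAC1_OE and 77.8 in MP2_NTC. Its other region, shared, lay 12141 bp outside the gene at the start of CD63. There the order was opposite, with 92.8 in MP2_HDAC1_OE and 72.1 in MP2_NTC.

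Collagen receptor chains had regions in all 4 genes, but few at their own ends. ITGA2, the main collagen receptor chain of epithelial cells and platelets, had 1 region, unique to MP2_NTC with signal 70.6 and rank 77.6, which lay 14829 bp outside the gene at the start of MOCS2 and was the highest-ranked unique MP2_NTC region in these windows. ITGA1, a collagen receptor chain of muscle and stroma, had 1 shared region inside the gene with ranks 94.4 and 90.2. ITGA11, a collagen receptor chain of fibroblasts, had 1 shared region at the start of FEM1B with ranks 89.2 and 85.9. ITGA10, a collagen receptor chain of cartilage, had a shared region at its stop end with ranks 41.3 and 57, a weak region unique to MP2_HDAC1_OE at its start (rank 5.67), and shared regions at the start of RBM8A with ranks of 83 and 97.7 in MP2_HDAC1_OE and 86.8 and 99.2 in MP2_NTC.

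The remaining integrin alpha genes bind RGD motifs or act in leukocytes. ITGAV, the alpha chain of vitronectin and TGF-beta-activating integrins, had 1 region, shared, over its start at chr2:186589163-186590566, with signal 85.8 and rank 91.5 in MP2_HDAC1_OE and signal 62.2 and rank 69 in MP2_NTC. The difference of 22.6 points compares peaks whose summits lay 631 bp apart. ITGA2B, the platelet fibrinogen receptor chain, had 1 region unique to MP2_HDAC1_OE with rank 43.7, at the end of FAM171A2. In ITGAE, a chain of lymphocytes that bind epithelium, a shared region at the ends of HASPIN and P2RX5 ranked 92.5 in MP2_HDAC1_OE and 50 in MP2_NTC. The summits of the peaks compared there lay 518 bp apart. Regions of ITGAE unique to each list ranked 35.2 and 35.3. ITGAL and ITGAD, leukocyte chains, had shared regions with ranks from 72.7 to 99.5 in MP2_HDAC1_OE and from 77.5 to 90.2 in MP2_NTC, and ITGAL a region unique to MP2_NTC with rank 20.2.

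**Figure D4:**
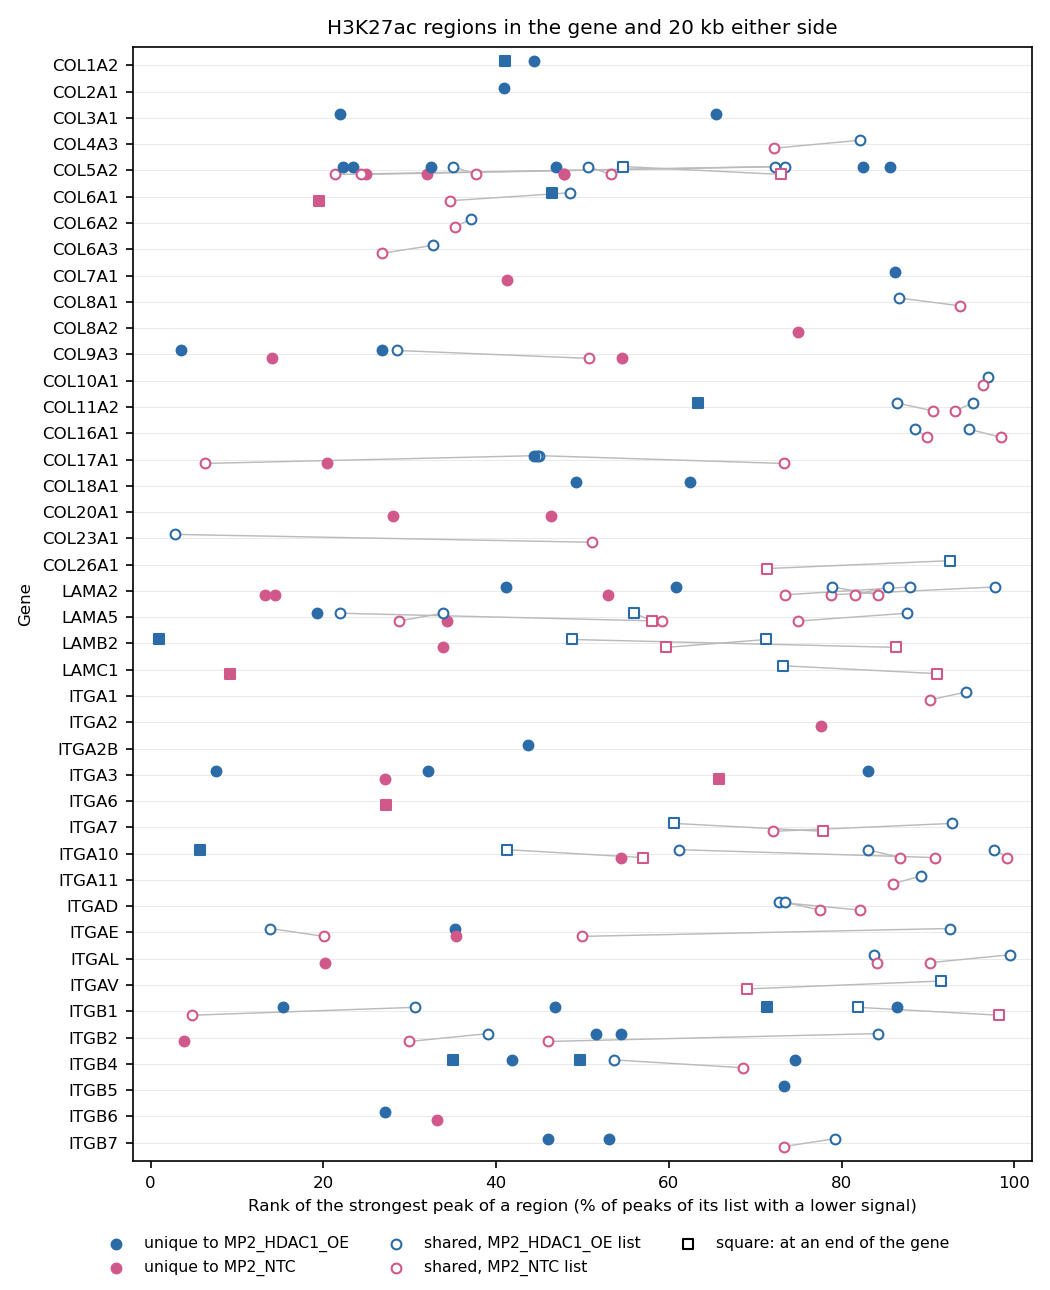
Rank within its list (horizontal axis, percent of peaks with a lower signal) of each H3K27ac region in the windows of the 42 genes with a region (vertical axis). Filled points are unique to MP2_HDAC1_OE (blue) or MP2_NTC (pink), open points joined by a line are the lists' ranks in 1 shared region, and squares lie at an end of the gene; ITGB1 and ITGB4 show 4 filled blue points each and no filled pink one.

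Over all windows there were 122 regions. Of these, 52 were shared (42.6%, interval 34.2 to 51.5), 43 were unique to MP2_HDAC1_OE (35.2%, interval 27.3 to 44.1, against 28.6% of all regions) and 27 were unique to MP2_NTC (22.1%, interval 15.7 to 30.3, against 20.7%). Of the 122, 22 lay at an end of a collagen, laminin or integrin gene, 37 at an end of another protein-coding gene and 63 at no such end, and regions away from gene ends were more often unique in the whole genome too. Among the 63, 42.9% were unique to MP2_HDAC1_OE (interval 31.4 to 55.1), against 38.9% of all 8389 regions at no coding gene end. The interval of the 63 thus held the share of all regions of that position. For 10 genes every region in the window lay at an end of another protein-coding gene. A peak of the other list lay within 1 kb of 12 of the 43 regions unique to MP2_HDAC1_OE (27.9%, and 29.1% over all such regions) and of 12 of the 27 unique to MP2_NTC (44.4%, and 32.2% over all). More than 20 kb from any peak of the other list were 17 of the 43 (39.5%, and 31.9% over all such regions) and 9 of the 27 (33.3%, and 31.5% over all).

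Shared regions of these genes ranked alike in both lists as a group. The rank was higher in MP2_HDAC1_OE in 26 of 52 (50%, interval 36.9 to 63.1), against 54.7% of all 9477 shared regions, and the median difference was 0.1 points against 1.5. It was over 20 points higher in MP2_HDAC1_OE in 9 (17.3% against 19.7% of all) and over 20 points higher in MP2_NTC in 6 (11.5% against 14.7%). At the genes' own ends, 3 of 10 shared regions ranked higher in MP2_HDAC1_OE (30%, interval 10.8 to 60.3, against 54.2% of all shared regions at a coding gene end), those of ITGAV, COL26A1 and LAMB2 at its start. Unique regions were weaker than shared ones, with median ranks of 44.4 in MP2_HDAC1_OE and 33.1 in MP2_NTC (41.6 and 39.1 over all unique regions), against 73.4 and 73.2 for shared regions.

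**Figure D5:**
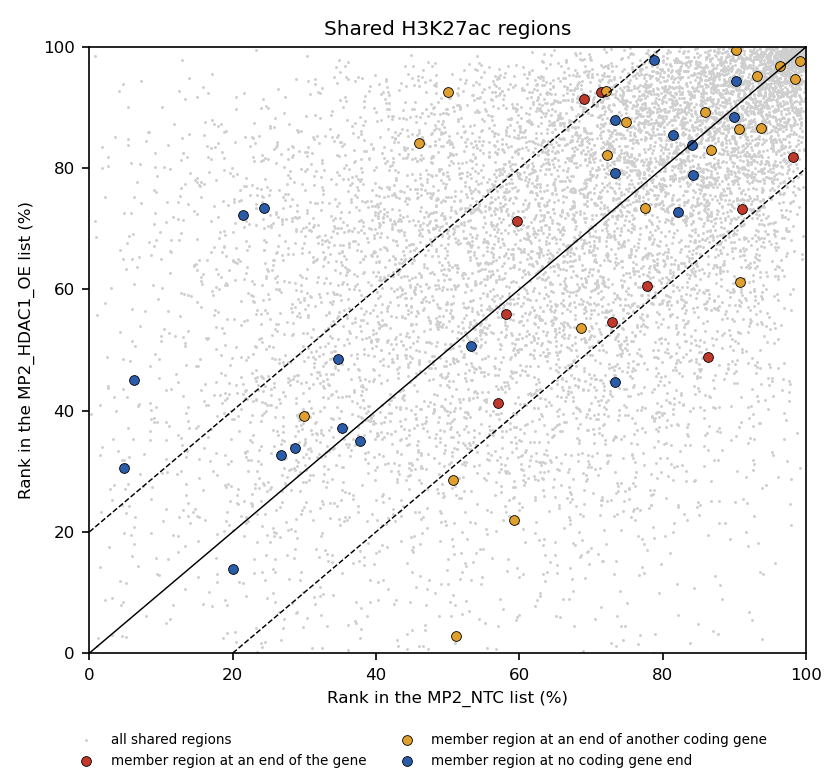
Rank in MP2_HDAC1_OE (vertical axis, percent) against rank in MP2_NTC (horizontal axis, percent) for shared H3K27ac regions, with all 9477 in grey and the 52 in the windows of collagen, laminin and integrin genes (member regions) colored by position. The solid line marks equal rank and the dashed lines a difference of 20 points; 9 colored points lie above the upper and 6 below the lower dashed line.

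Genes that work with these proteins were marked more often than the genes themselves. Of a list of 40 matrix partners, collagen enzymes, adhesion proteins and other matrix receptors, 31 had a region in their window (77.5%) and 25 one at their own end (62.5%), against 63.2% and 48.5% of all protein-coding genes. A region unique to MP2_HDAC1_OE was found for 19 (47.5%) and one unique to MP2_NTC for 15 (37.5%), against 26.4% and 23.4%. By role, the 14 genes of integrin adhesions, which encode cytoskeletal linkers and adaptors such as TLN1, VCL, PXN and ILK, the kinase PTK2 and the tetraspanin CD151, all had a region, 10 of them one unique to MP2_HDAC1_OE and 6 one unique to MP2_NTC. FERMT1, an epithelial integrin activator, had 2 regions at its own ends, both unique to MP2_HDAC1_OE, the higher with rank 80.3. Directions differed among the others. VCL had 1 region, unique to MP2_NTC at its end with rank 42.9. PARVA (34.6 in MP2_HDAC1_OE, 72 in MP2_NTC), FERMT2 (58.5 and 73.9) and PLEC (48.5 and 50.8) had a higher end rank in MP2_NTC. TLN1, PTK2, ZYX, ILK, LIMS1 and CD151 had a higher one in MP2_HDAC1_OE. An end rank here is the highest in a list over all regions at a gene's ends. ZYX, ILK, CD151, P4HB and PLOD3 had 2 end regions each, so their values may come from different regions. Of the 11 genes for collagen-modifying enzymes and the collagen chaperone SERPINH1, 8 had a region at their own end, and SERPINH1 ranked 99.2 there in MP2_HDAC1_OE and 78.8 in MP2_NTC. P4HA1, P4HA2, P4HB and LOXL2 also had a higher end rank in MP2_HDAC1_OE, and PLOD1 had an end region unique to it. PLOD3 (79.2 and 83.7) had a higher end rank in MP2_NTC. The only region of BMP1, at its end, was unique to MP2_NTC with rank 39.4. Of 9 other matrix genes 3 had a region, and FN1, TNC, THBS1, SPARC, HSPG2 and FBN1 had none. The low share of marked ends was thus seen for secreted matrix genes of this list as well, with 1 of 9 marked at its own end, AGRN.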

How the data were processed

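H3K27ac ChIP-seq was read from 1 peak list per line, each made by the authors over 2 H3K27ac samples and 2 controls without antibody as reproducible (IDR) peaks of the ENCODE procedure. The submitters' processing notes name build hg38, BWA 0.7.12, SAMtools and Picard 1.88, and the peak caller is not given in the sources used here. The deposited signal value of each peak (column 7) has no stated scale, and the deposited score was read for its range only, so signals were compared as ranks within a list. Depth per sample is unknown. Python 3.11.15, pandas 2.3.3 and statsmodels 0.14.6 were used, and the merging was tested on simulated data. Gene ends and promoter entries are those of RefSeq tables of GRCh38.p14, and 58 of 82 genes had an entry. A gene with several entries was counted once. Intervals are 95% Wilson intervals for counting error only and are not tests.

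Members and lists were chosen with earlier results of these data known. Genes were described by this rule: those with unique and no shared regions, the 5 highest ranks at an own end and the 5 highest unique regions of each list, the 5 widest rank differences each way, those with 3 or more unique regions, a set of 14 well-known genes, and HDAC1. Further genes were described to account for the rest, and a few items that the rule covers are not reported here. Other windows, gene ends, overlaps and peak choices were tried.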

Additional observations from a re-analysis of the deposited data

How the results depend on the processing

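Of 84 alternatives over 11 results, 62 left the value within the limits set for a count or share and 22 moved it. The window decided most counts. With the gene alone, 23 genes had a region, 15 one unique to MP2_HDAC1_OE, 7 one unique to MP2_NTC and 2 unique MP2_NTC regions alone. The regions were then 22 shared, 25 unique to MP2_HDAC1_OE and 13 unique to MP2_NTC, with 9 shared ones shifted by over 20 points. With 5 kb either side, 26 genes had a region, 10 one unique to MP2_NTC and 1 unique MP2_NTC regions alone, with 26 shared regions and 16 unique to MP2_NTC. With 50 kb, 3 genes had unique MP2_HDAC1_OE regions alone, and there were 92 shared regions (24 shifted by over 20 points), 69 unique to MP2_HDAC1_OE and 43 unique to MP2_NTC. Without regions at ends of other protein-coding genes, 31 shared regions remained, 8 of them shifted. Counting the start alone, 8 genes had a region at their own end in place of 15. Only the 58 of 82 genes with a known strand could be counted there. ITGA3, ITGA7, ITGB4, COL1A2, COL5A2 and COL6A1 dropped out because their strand was unknown. COL11A2 dropped out because its mark lay at the stop end. With the peak nearest the region's middle, 26 shared regions differed by over 20 points in place of 15, so single rank shifts depend on which peaks are compared. In an alternative chosen after seeing the data, limited to the 47 shared regions whose strongest peaks overlap, 12 differed by over 20 points and 51.1% ranked higher in MP2_HDAC1_OE. The order of genes with unique regions of 1 list alone, 6 against 4, turned to 3 against 4 with 50 kb, and the share of shared regions ranked higher in MP2_HDAC1_OE lay on both sides of 50%, from 45.1% to 54.7%. No paired analysis was possible because 1 list stood for the 2 H3K27ac samples of each line, so that neither sample could be left out in turn.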
